A study of Homo sapiens with 7 samples.

Results

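H3K27ac and H3K4me2 peaks of the breast cancer line T-47D were compared by position along chromosomes 1 to 22 and X. All peaks of both lists on these chromosomes were taken, 31453 for H3K27ac and 64561 for H3K4me2, which made 96014 of the 285703 peaks in the 6 lists analysed. A peak with at least 1 bp inside a peak of the other list is called shared, and a peak with none is called own. T-47D is an established luminal, estrogen receptor-positive line. Both libraries were chromatin immunoprecipitations followed by sequencing (ChIP-seq) from the same line, with no treatment named, kept in DMEM with 10% serum until 70 to 80% confluent. They differed in the antibody, from Abcam for H3K27ac and from Millipore for H3K4me2. Each mark had 1 library and no replicate. No difference between the marks could therefore be set against a spread between replicates, and no test was made. The input library was not analysed here.

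As background, H3K4me2 is written by methyltransferases of the MLL family and is found around gene starts and at enhancers, both active ones and ones that are primed but silent. H3K27ac is written by the acetyltransferases CBP and p300 and is used to tell active enhancers and promoters from primed ones. Acetylation and Polycomb trimethylation compete for the same lysine of H3, so a single histone tail carries one or the other. H3K36me3 is laid down over transcribed gene bodies.

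The lists give positions only, so the number of reads behind a peak is unknown, and a stretch without a peak can hold signal under the caller's threshold. Shares are followed by Wilson 95% intervals, which cover counting error alone and are too narrow where peaks lie in clusters. In a bulk library, both marks at a position need not be on the same nucleosome or in the same cell. No correction was made for copy number. Among the other lists, the one labelled H2A.Z touched 0.0521% of shared and 0.0994% of own H3K27ac peaks, and the one labelled H3K9me3 touched 27.8 and 11.2%. H2A.Z is known from promoters and enhancers and H3K9me3 from heterochromatin, so both lists run against their names, and they are given below as the lists carrying those labels. Markers of the cell type were not placed, since gene positions of hg19 were not used here, and loci are named by hg19 position without genes.

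H3K27ac covered 35.8 Mb and H3K4me2 52.7 Mb, or 1.22 and 1.79% of the 2945 Mb between the first and last peaks of the chromosomes. Both lists together lay on 11.4 Mb, which was 31.9% of the bases under H3K27ac and 21.7% of those under H3K4me2. By peaks, 15354 H3K27ac peaks (48.8%, 48.3 to 49.4) were shared and 16099 were own. Of the H3K4me2 peaks, 16565 (25.7%, 25.3 to 26) were shared and 47996 were own. There were 2.05 H3K4me2 peaks for each H3K27ac peak, so an equal number of shared peaks is a smaller part of the H3K4me2 list.

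Shared peaks of both marks were wider than own peaks. The commonest width in both lists was about 0.5 kb, here called the base width. It was held by 25.8% of shared and 57.3% of own H3K27ac peaks, and by 26.6% of shared and 55.4% of own H3K4me2 peaks. Shared H3K27ac peaks had a median width of 938 bp and an upper quartile of 1853 bp, and shared H3K4me2 peaks of 812 and 1341 bp. Own peaks of both marks had the base width as their median, with upper quartiles of 798 bp for H3K27ac and 769 bp for H3K4me2. The long tail separated the classes further. Peaks over 2 kb made up 22.2% of shared against 5.69% of own H3K27ac peaks, and 11.6% against 2.15% for H3K4me2. Shared peaks held 63.7% of the summed H3K27ac length and 35% of the summed H3K4me2 length. A wide peak has more bases at which to meet the other list, so width and the split are not independent. The share of peaks that met the other mark was 30% among H3K27ac peaks of at most the base width (29.3 to 30.8), 50.6% above it up to 1 kb, 66.3% up to 2 kb and 88.5% over 5 kb (85.6 to 90.9). The corresponding H3K4me2 shares were 14.2% (13.8 to 14.6), 27.8%, 46.1% and 73.8% (66.2 to 80.2). In each of these 4 width classes, H3K27ac peaks were shared more often than H3K4me2 peaks, and the part of list length in this order was not tested.

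**Figure D1:**
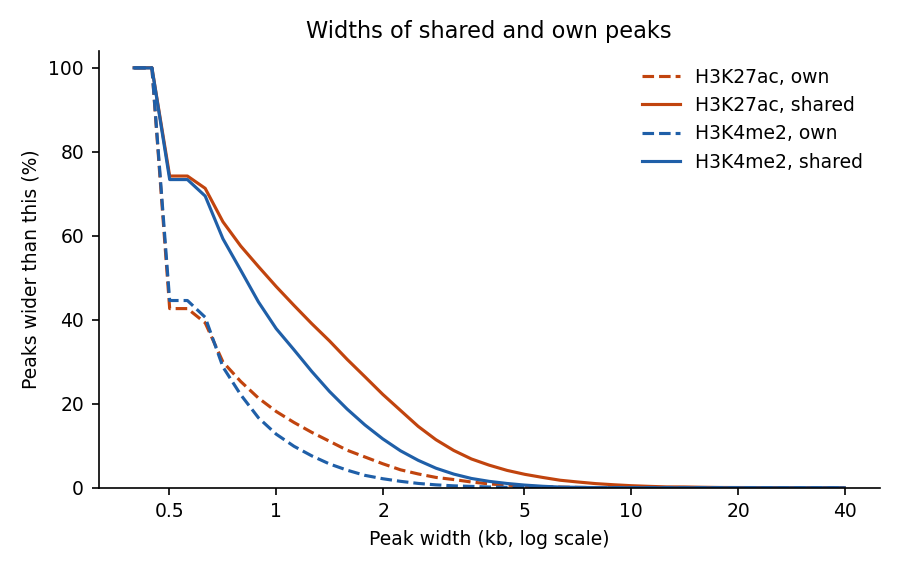
Share of peaks wider than the width on the x axis (kb, log scale), for shared (solid) and own (dashed) peaks of H3K27ac (orange) and H3K4me2 (blue). The shared curves lie above the own curves of the same mark, and past 2 kb they hold 22.2% of shared H3K27ac and 11.6% of shared H3K4me2 peaks against 5.69 and 2.15% of the own peaks.

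Own H3K27ac peaks lay close to H3K4me2, whereas own H3K4me2 peaks mostly lay far from H3K27ac. The gap from the edge of an own H3K27ac peak to the nearest H3K4me2 peak had a median of 3099 bp, with quartiles of 1014 and 9044 bp. From own H3K4me2 peaks to the nearest H3K27ac peak the median was 20986 bp, with quartiles of 4380 and 77151 bp. Of own H3K27ac peaks, 61.3% (60.6 to 62.1) had an H3K4me2 peak within 5 kb, against 26.7% (26.3 to 27.1) of own H3K4me2 peaks with an H3K27ac peak that near. Only 217 own H3K27ac peaks (1.35%) were over 100 kb from H3K4me2, while 9768 own H3K4me2 peaks (20.4%) were over 100 kb from H3K27ac. The H3K4me2 list is the longer and so offers more neighbours, and the part of list length in this contrast was not tested. When both lists were restricted to peaks wider than their median, 40.3% of own H3K27ac peaks had H3K4me2 within 5 kb. The reverse share was 18.3%, so the order of the marks was kept. Each list was cut at its own median, so H3K4me2 stayed the longer list. The restriction therefore says nothing about the part of list length.

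The gap to the other mark varied more with width in own H3K4me2 peaks than in own H3K27ac peaks. From the narrowest class of own H3K4me2 peaks to the widest, the median gap to H3K27ac was 23296 bp at the base width, 16384 bp between 1 and 2 kb, 5184 bp between 3 and 5 kb and 3964 bp over 5 kb. Own H3K27ac peaks had median gaps to H3K4me2 of 3451, 2780, 2678 and 1614 bp in the same classes. Above the base width up to 1 kb and from 2 to 3 kb, the medians were 20414 and 9089 bp for own H3K4me2 peaks. For own H3K27ac peaks they were 2668 and 3128 bp, so their gap did not fall steadily with width. The widest class held only 39 own H3K4me2 and 65 own H3K27ac peaks. Some neighbours within 5 kb were themselves shared peaks. Over all peaks, 25.7% of H3K4me2 and 48.8% of H3K27ac peaks were shared. A peak can have several neighbours within 5 kb, so the shares that follow are not on the same scale. A shared H3K4me2 peak lay within 5 kb for 49.6% (48.6 to 50.5) of the own H3K27ac peaks that had any H3K4me2 peak that near, and a shared H3K27ac peak for 56.3% (55.5 to 57.2) of the own H3K4me2 peaks with any H3K27ac peak that near.

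**Figure D2:**
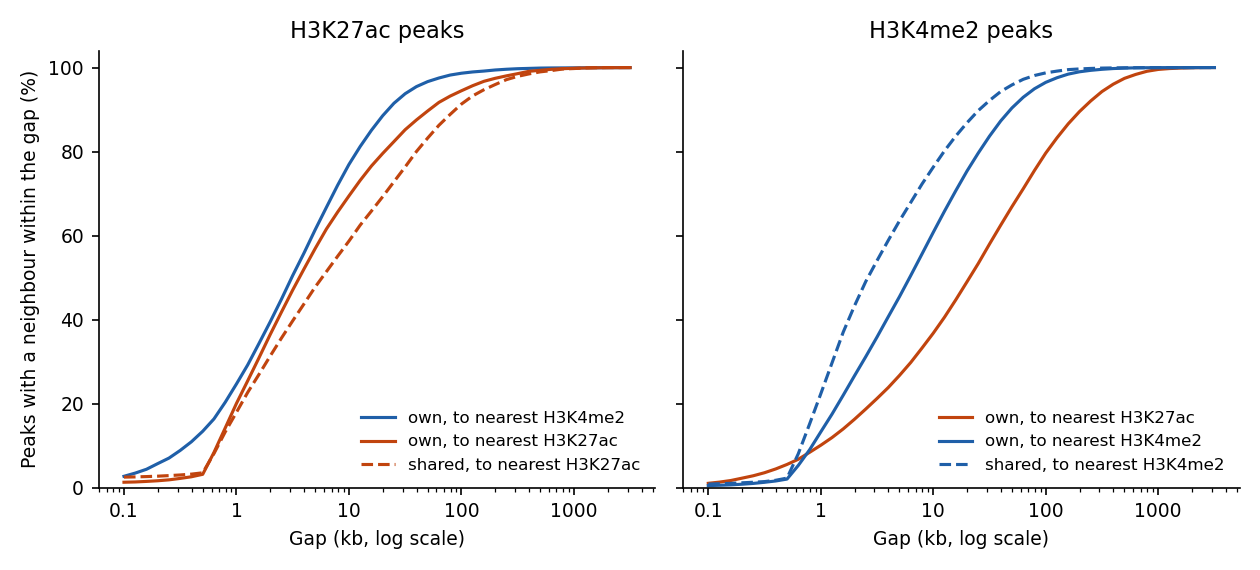
Share of peaks with a neighbour within the gap on the x axis (kb, log scale), for H3K27ac peaks (left) and H3K4me2 peaks (right), with orange lines for gaps to H3K27ac, blue lines for gaps to H3K4me2, and dashed lines for shared peaks. At 5 kb, 61.3% of own H3K27ac peaks have an H3K4me2 neighbour while 26.7% of own H3K4me2 peaks have an H3K27ac neighbour.

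Spacing within a list ran in opposite directions for the 2 marks. Shared H3K27ac peaks stood farther from the next H3K27ac peak than own ones did, with median gaps of 5766 and 3594 bp. Shared H3K4me2 peaks stood closer to the next H3K4me2 peak than own ones, with median gaps of 2620 and 6143 bp. The split and the spacing are not independent. In 1345 regions a single H3K27ac peak was joined with 2 or more neighbouring H3K4me2 peaks and could make them shared at once, against 376 regions of the reverse kind. The part of this, and of the larger width of shared peaks, in the spacing was not tested. For 55.3% (54.5 to 56) of own H3K27ac peaks the nearest peak of either list was an H3K4me2 peak. For own H3K4me2 peaks it was an H3K27ac peak in 24.7% (24.3 to 25.1).

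Clusters showed the same opposition, and the part of the split and of peak width in it was not tested either. A cluster is a run of peaks of one list with gaps up to a linking distance a little over 12 kb, and clusters of 5 or more peaks held 31.1% (30.6 to 31.6) of H3K27ac and 26.4% (26 to 26.7) of H3K4me2 peaks. Own H3K27ac peaks were in such clusters more often than shared ones, at 36.7% (35.9 to 37.4) against 25.3% (24.6 to 26). For H3K4me2 the shared peaks were in them more often, at 34.2% (33.5 to 35) against 23.6% (23.3 to 24). The size of these shares is set by the linking gap: with 5 kb they were 11.1% of H3K27ac and 7.15% of H3K4me2 peaks, and with 25 kb 47.2 and 48.7%. The difference of shared minus own peaks was -11.4 percentage points for H3K27ac and 10.6 for H3K4me2 at that distance. It was -4.12 and 4.61 at 5 kb, and -13.6 and 13.6 at 25 kb, so the signs were the same at all 3 gaps.

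Linking the peaks of both lists by the same rule gave 9890 clusters with at least 1 shared peak. These held 81.2% of all H3K27ac peaks and 52% of all H3K4me2 peaks. They also took in 63.3% of own H3K27ac peaks but 35.4% of own H3K4me2 peaks. A further 2547 clusters held both marks without an overlap. H3K4me2 stood without any linked H3K27ac in 19208 clusters, which held 26007 peaks, or 54.2% of own H3K4me2 peaks. H3K27ac stood without linked H3K4me2 in 2073 clusters with 2458 peaks, or 15.3% of own H3K27ac peaks. Most of the clusters of a single mark were lone peaks, with a median of 1 peak and a median length of 0.633 kb for H3K27ac and 0.637 kb for H3K4me2.

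Overlapping peaks merged into 14898 shared regions, of which 13062 (87.7%, 87.1 to 88.2) joined 1 peak of each mark. In the others the peaks were more often split on the H3K4me2 side. A single H3K27ac peak was joined with 2 or more H3K4me2 peaks in 1345 regions, and a single H3K4me2 peak with 2 or more H3K27ac peaks in 376. An own peak that overlaps a shared peak of its list is part of the region, so not every joined peak need meet the other mark. In the regions with 1 peak of each, the median width was 846 bp for the H3K27ac peak and 824 bp for the H3K4me2 peak, and H3K27ac was the wider in 45.5% and H3K4me2 in 44.8%. The stretch under both peaks was a median of 43.3% of the region, and its median length was the base width. Their centres lay a median of 286.5 bp apart (quartiles 116.5 and 542.9).

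H3K4me2 formed both ends of short shared regions somewhat more often, and H3K27ac formed both ends of long ones far more often. Over all regions, H3K27ac formed both outer ends in 21.1% (20.5 to 21.8) and H3K4me2 in 22.2% (21.5 to 22.8), and each formed 1 end in 56.5%. Regions of at most 1 kb had H3K27ac at both ends in 12% (11 to 13.1) and H3K4me2 in 15.3% (14.2 to 16.4), and those of 1 to 2 kb in 18.2 and 24.1%. From 5 to 10 kb the shares were 50.3% (46.2 to 54.3) for H3K27ac and 15.5% (12.8 to 18.7) for H3K4me2. Of the 91 regions over 10 kb, H3K27ac enclosed 59 (64.8%, 54.6 to 73.9) and H3K4me2 enclosed 2 (2.2%, 0.605 to 7.66). The order turned between 2 and 5 kb. The intervals of both marks overlapped from 2 to 3 kb, at 25.5 and 26.9%, and separated from 3 to 5 kb, at 31.4% (29.3 to 33.6) and 26.9% (24.9 to 29). The length of a region includes the reach of its outer mark, so region length and end are not separate measurements.

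**Figure D3:**
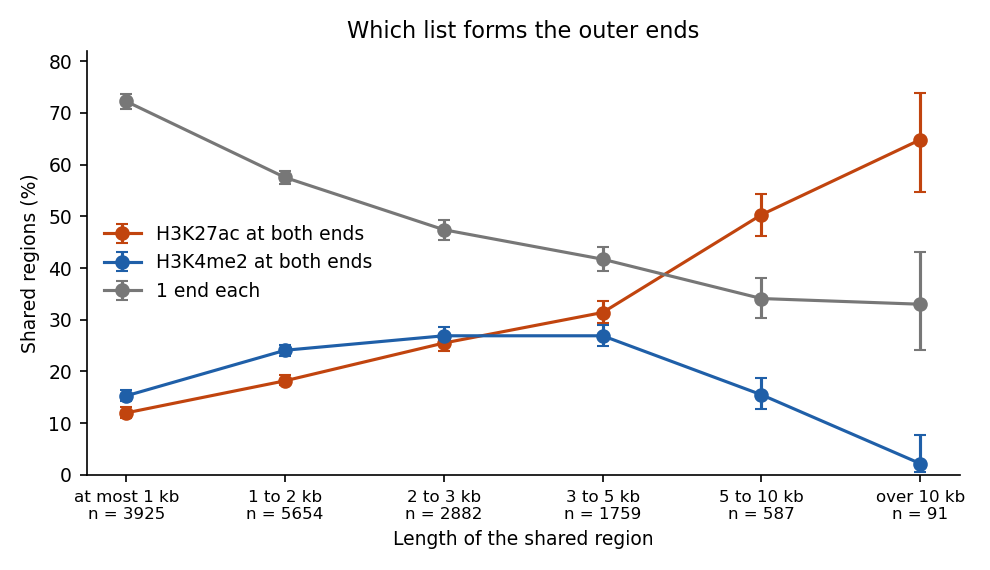
Share of shared regions (y axis, %) in which H3K27ac (orange) or H3K4me2 (blue) forms both outer ends or each mark forms 1 (grey), by length of the region, with Wilson 95% intervals as bars and the number of regions under each class. H3K27ac at both ends goes from 12% of regions of at most 1 kb to 64.8% of those over 10 kb, while H3K4me2 at both ends is at 15.3 and 2.2%.

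The median reach of one mark past the other was similar, and reaches over 1 kb were more often those of H3K27ac. Where H3K27ac formed an end, it extended a median of 319 bp past the outermost H3K4me2 peak, and H3K4me2 extended a median of 300 bp past H3K27ac. Reaches over 1 kb were 2869 of the H3K27ac ends (19.5%) and 1544 of the H3K4me2 ends (10.3%). Reaches over 5 kb numbered 80 for H3K27ac and 8 for H3K4me2, although the farthest of all, 23126 bp, was one of H3K4me2. Summed over all ends, H3K27ac extended 9.16 Mb past H3K4me2, and H3K4me2 6.75 Mb past H3K27ac.

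Within wide H3K27ac peaks, H3K4me2 lay toward the sides and less often at the middle. At the middle of H3K27ac peaks of 2 to 3 kb, 27.1% (25.4 to 28.9) were covered by H3K4me2. At 15% of the width 43.3% (41.3 to 45.3) were covered, and at 85% 39.8% (37.8 to 41.7). The middle was thus 14.4 points under the mean of the sides (a difference of -14.4, interval -16.6 to -12.1). This interval is a normal approximation, not a Wilson interval. It treats the points as independent, although the middle and both sides were read on the same peaks. The same shape, with a difference of -8.1 points, was seen in the class of 3 to 5 kb. It was not seen in narrower classes, where the difference was 0.202 points between 1 and 2 kb and 6.41 points between the base width and 1 kb. Over 5 kb the difference was 6.91 points, with 28.9% (25.3 to 32.8) covered at the middle. Between 2 and 3 kb, 257 of 2435 peaks (10.6%, 9.4 to 11.8) had H3K4me2 on both side points and not at the middle, and 755 (31%) had it on 1 side point alone. Between 3 and 5 kb, 114 of 1327 (8.59%) had it on both side points and not at the middle.

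The reverse arrangement had no dip. H3K27ac covered the middle of H3K4me2 peaks more often than the sides in every width class, by 0.484 points at most the base width, 5.44 points between 1 and 2 kb, 8.28 points between 2 and 3 kb, 9.83 points between 3 and 5 kb and 10.1 points in the 149 peaks over 5 kb. In H3K4me2 peaks of 2 to 3 kb, 39.4% (37.3 to 41.5) were acetylated at the middle, and 30 of 2041 (1.47%) had H3K27ac at both sides and not the middle. In the class of 2 to 3 kb, the list labelled H3K9me3 covered 7.39% of H3K27ac peaks at 5% of the width and 16.1% (14.7 to 17.6) at 25%. It covered 13.5% (12.2 to 14.9) at the middle, 15.8% (14.4 to 17.3) at 75% and 8.13% at 95%. Across H3K4me2 peaks of that class it covered 11.4% at 15% of the width, 16.3% at the middle and 9.41% at 85%.

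**Figure D4:**
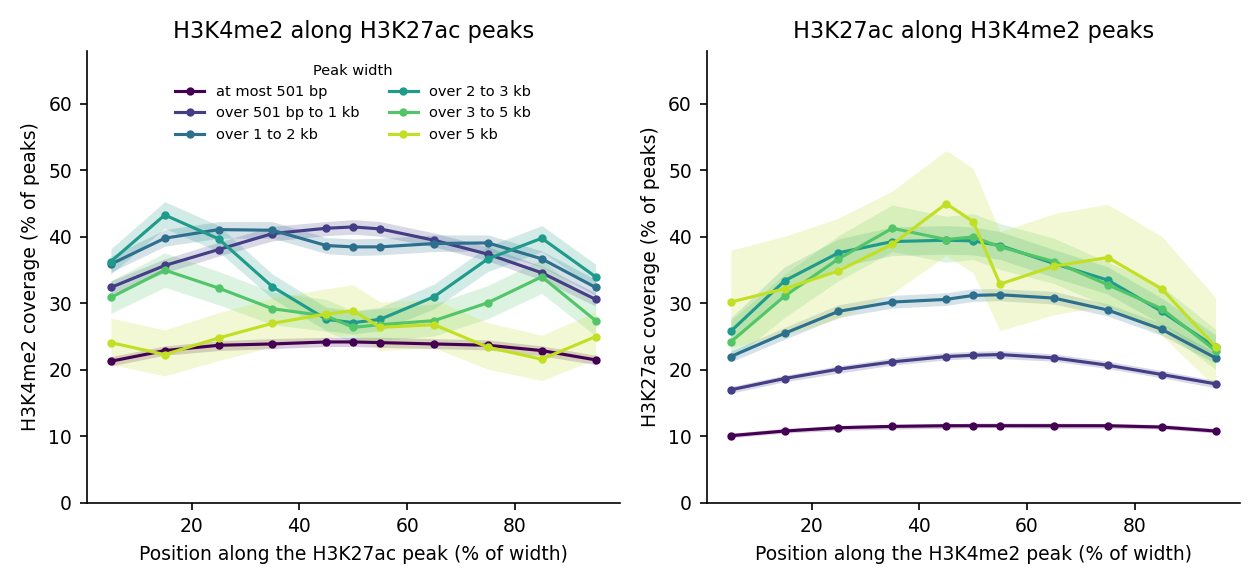
Share of H3K27ac peaks covered by H3K4me2 (left) and of H3K4me2 peaks covered by H3K27ac (right) at points along the peak (x axis, % of width), with 1 line per width class and Wilson 95% intervals as bands. H3K27ac peaks of 2 to 3 kb go from 43.3% at 15% of the width to 27.1% at the middle and 39.8% at 85%, while H3K27ac on H3K4me2 peaks of that class is highest near the middle, at 39.4%.

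The size of the dip depended on how close H3K4me2 peaks were treated. It was -8.54 points when H3K4me2 peaks within 1 kb of each other were merged, and -9.03 in H3K27ac peaks that no peak of the list labelled H3K9me3 touched. Both were chosen after seeing the data, and the part that this list has in the dip was not tested. Merging counts gaps of up to 1 kb as covered, so it fills many gaps between paired H3K4me2 peaks by itself. The smaller dip after merging is therefore partly set by the treatment. The split sites were also counted directly. In 1210 shared regions a single H3K27ac peak was joined with exactly 2 H3K4me2 peaks. In 1177 of them a gap remained between the pair, with a median of 964 bp (quartiles 687 and 1398). That gap held the middle of the H3K27ac peak in 873 regions (74.2%). The choice of regions puts the gap inside the H3K27ac peak with H3K4me2 on both sides, so this share is not separate support for the dip. A peak of the list labelled H3K9me3 touched the gap in 305 (25.9%, 23.5 to 28.5). The mirror arrangement, a single H3K4me2 peak joined with 2 H3K27ac peaks, occurred in 368 regions, 256 of them with a gap. Their median gap was 762 bp, the gap held the middle in 60.9%, and the list labelled H3K9me3 touched it in 8.98% (6.06 to 13.1).

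Outside the peaks, each mark faded with distance from the other. H3K4me2 covered 19.1% of positions 250 bp outside H3K27ac peaks of 2 to 3 kb, 10.5% at 1 kb, 6.55% at 5 kb and 4.35% at 50 kb. H3K27ac around H3K4me2 peaks of that class covered 14.3, 11.6, 6.81 and 4.14% at the same distances. H3K36me3 around the H3K27ac peaks of 2 to 3 kb covered 5.54% at 250 bp, 10.8% at 1 kb, 15.1% at 5 kb and 11.6% at 50 kb. Around H3K27ac peaks of at most the base width it covered 13.1% at 250 bp, at 1 kb and at 5 kb, and 10.6% at 50 kb.

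The 5 longest shared regions were 1 or 2 long H3K27ac peaks with several shorter H3K4me2 peaks. The longest lay on chromosome 22 (29185842 to 29225458, 39.6 kb), where 1 H3K27ac peak covered the whole and 4 H3K4me2 peaks covered 7.2% of it. On chromosome 4 (37451046 to 37485061, 34 kb) 1 H3K27ac peak spanned 8 H3K4me2 peaks that covered 17%. On chromosome 17 (56003722 to 56032225, 28.5 kb) 8 H3K4me2 peaks covered 44.5%, the densest of the 5. The other two were on chromosome 2 (11669584 to 11701514), with 1 H3K27ac peak over 95.6% and 4 H3K4me2 peaks over 13.2%, and chromosome 6 (151963580 to 151992130), with 2 H3K27ac peaks over the whole and 3 H3K4me2 peaks over 27.7%. H3K36me3 touched all 5, and neither H3K27me3 nor either of the lists labelled H2A.Z and H3K9me3 touched any of them. Among all 499 shared H3K27ac peaks over 5 kb, H3K36me3 touched 33.1% and the list labelled H3K9me3 24.8%. H3K27me3 touched 0 of these and the list labelled H2A.Z 1, so their absence was general. The 5 regions are the longest and have more bases at which to meet a list. Chromosomes 4 and 17 also held the shared regions with most peaks, 9 each, followed by chromosome 10 (71078883 to 71096863) with 1 H3K27ac and 7 H3K4me2 peaks.

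The farthest reach of H3K27ac past H3K4me2 was 13763 bp, on chromosome 14 (38052126 to 38069034), where the only H3K4me2 peak covered 2.96% of the region. A region on chromosome 4 (116577812 to 116593729) followed with 12442 bp and one on chromosome 10 (28569200 to 28593493) with 11970 bp. Most of that last reach is an own H3K27ac peak of 9569 bp, which is in the region because it overlaps a shared H3K27ac peak. It is named again below among the widest own peaks. H3K27ac reached 11223 bp past H3K4me2 on chromosome 1 (156709709 to 156723057), and the region on chromosome 11 (48068362 to 48080064) had a reach of 10871 bp. One H3K4me2 reach was longer than all of these. On chromosome 16 (85485488 to 85509671) H3K4me2 extended 23126 bp past an H3K27ac peak that covered 4.37% of the region. The other H3K4me2 reaches were shorter. They were 7385 bp in a region of chromosome 14 (105153626 to 105161613) and 6405 bp in one of chromosome 11 (70445788 to 70455863). A region near the start of chromosome 16 (113908 to 122449) had 6322 bp, and a second of chromosome 14 (71126856 to 71134846) had 5770 bp.

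The widest own peaks mostly had the other mark close by. The widest own H3K27ac peak, on chromosome 20 (45979452 to 45991132, 11.7 kb), stood 1869 bp from H3K4me2. The next on chromosome 6 (26025236 to 26035339) stood 2257 bp from it. Peaks of chromosome 1 (235092377 to 235102064) and of chromosome 14 (93477579 to 93486602) stood 653 and 748 bp away. The one on chromosome 10 (28569200 to 28578768) stood 2401 bp away and overlapped another H3K27ac peak that was shared. Among own H3K4me2 peaks, the widest, on chromosome 10 (95193379 to 95206327, 12.9 kb), stood 3034 bp from H3K27ac. Peaks of chromosome 16 (88983834 to 88996038) and of chromosome 6 (34498632 to 34507496) stood 1395 and 2062 bp from it. Those on chromosome 11 (62306158 to 62316863) and chromosome 17 (55975320 to 55983651) stood farther off, at 12937 and 20070 bp. The peak on chromosome 17 lay at lower coordinates than the 28.5 kb shared region named above.

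The largest clusters of each mark contained the other mark but were unequal in it. The H3K27ac cluster with most peaks, on chromosome 11 (65277786 to 65431975), held 37 H3K27ac peaks, 10 of them shared, and 15 H3K4me2 peaks. On chromosome 1 (201965413 to 202109194) 33 H3K27ac peaks, 7 of them shared, lay with 14 H3K4me2 peaks. On chromosome 9 (139831378 to 139985457) there were 33, 13 and 23. The H3K4me2 cluster with most peaks, on chromosome 15 (99190032 to 99304738), held 32 H3K4me2 peaks, 10 of them shared, and 14 H3K27ac peaks. Those on chromosome 14 (95704741 to 95826787) and chromosome 5 (154407248 to 154528615) held 30 and 27 H3K4me2 peaks, 7 of them shared in each, and 8 and 14 H3K27ac peaks.

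When both lists were linked together, the largest cluster lay on chromosome 16 (85450079 to 85815717, 365.6 kb). It held 49 H3K27ac peaks, 28 of them shared, and 54 H3K4me2 peaks, 30 of them shared. H3K4me2 covered 31.9% of it and H3K27ac 16.5%. The H3K4me2 peak with the 23126 bp reach is part of this cluster. H3K36me3 had 41 peaks there, the list labelled H3K9me3 had 2, and H3K27me3 had 0. Over the whole span these lists had 17.8, 6.94 and 21.9 peaks per Mb. The next clusters were on chromosome 10, at 80807737 to 81068352 with 41 H3K27ac and 33 H3K4me2 peaks, and at 112469765 to 112691997 with 28 and 42. These linked clusters were chosen after their values were seen.

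**Figure D5:**
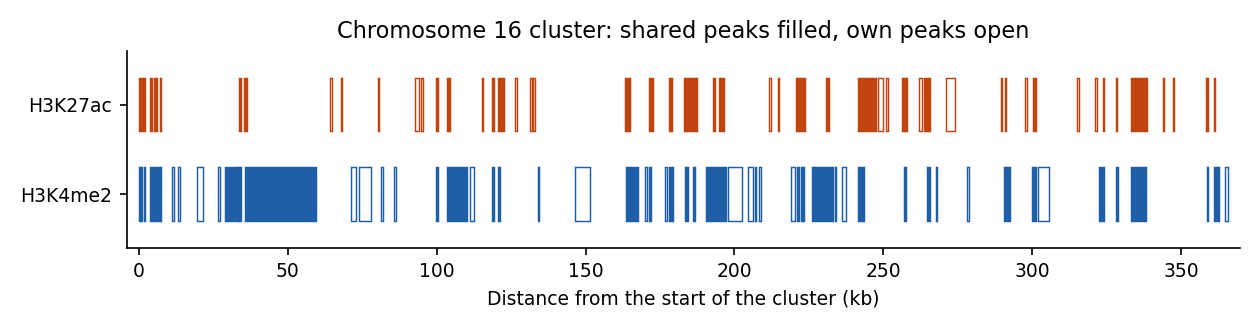
Peaks of H3K27ac (top, orange) and H3K4me2 (bottom, blue) along the 365.6 kb cluster on chromosome 16, with the distance from its start on the x axis (kb), shared peaks filled and own peaks open. The 28 shared of 49 H3K27ac peaks and the 30 shared of 54 H3K4me2 peaks are interleaved with own peaks along the whole cluster, and the longest block is an H3K4me2 peak that reaches 23126 bp past its H3K27ac neighbour.

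Runs of consecutive own peaks, with no peak of the other mark between them, were long for H3K4me2 and short for H3K27ac. Runs of 5 or more held 52.9% of own H3K4me2 peaks, in 3094 runs, and 8.08% of own H3K27ac peaks, in 212 runs. The part of the longer H3K4me2 list in this difference was not tested. The longest H3K27ac runs were 15 peaks over 1388 kb on chromosome 12 (13279732 to 14667299), 14 over 87.9 kb on chromosome 7 (5357363 to 5445214) and 13 over 48.7 kb on chromosome 11 (65355189 to 65403902). The last is inside the largest H3K27ac cluster. H3K36me3 had 14, 18 and 4 peaks in these runs, or 10.1, 204.9 and 82.1 per Mb against 17.8 over the whole span, and H3K27me3 had 0 in each.

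The 3 longest H3K4me2 runs held peaks of H3K27me3, the Polycomb mark, at 40.1, 20.2 and 40.5 per Mb, where the whole span had 21.9 per Mb, so 2 of the 3 lay above that level. On chromosome 11 (80430736 to 82399534, 1969 kb) 40 own H3K4me2 peaks ran with 79 H3K27me3 peaks and 53 of the list labelled H2A.Z, and no H3K36me3 peak. On chromosome 2 (3657620 to 8666819, 5009 kb) 39 own H3K4me2 peaks ran with 101 H3K27me3 peaks and 26 of the list labelled H2A.Z. On chromosome 12 (40954359 to 42534727) 33 ran with 64 and 105, together with 10 H3K36me3 peaks. Per Mb, the list labelled H2A.Z had 26.9, 5.19 and 66.4 peaks in these runs and 17.7 over the whole span. H3K4me2 covered 1.58, 0.493 and 1.56% of these spans.

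The other lists, which the split did not use, set own H3K27ac peaks apart by H3K36me3. H3K36me3 touched 18.3% (17.7 to 18.9) of own and 7.24% (6.84 to 7.66) of shared H3K27ac peaks. Narrow peaks carried the contrast. At the base width or less the shares were 22.1% (21.2 to 22.9) for 9233 own and 5.02% (4.38 to 5.75) for 3963 shared peaks. Between 1 and 2 kb they were 8.91 and 4.67%, and between 2 and 3 kb 9.72 and 10.6%, with overlapping intervals. Over 5 kb the shares were 21.5% (13.3 to 33) of 65 own and 33.1% (29.1 to 37.3) of 499 shared peaks, and the intervals overlapped. By distance, H3K36me3 touched 15.1% of own H3K27ac peaks within 5 kb of H3K4me2, 24.9% (23.8 to 26) of those from 5 to 50 kb and 6.68% (4.86 to 9.11) of those over 50 kb. The median width was the base width up to 50 kb and 634 bp beyond, and the part of width in these shares was not tested.

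On H3K4me2 peaks H3K36me3 had the opposite order over all widths. It touched 6.61% (6.24 to 7) of shared and 3.22% (3.07 to 3.38) of own peaks, and at the base width or less 5.66 and 3.03%. Over 5 kb the shares were 19.1% (12.8 to 27.4) of 110 shared and 30.8% (18.6 to 46.4) of 39 own peaks, with overlapping intervals. Among own H3K4me2 peaks it was less common with distance from H3K27ac, at 6.76% within 5 kb, 3.08% from 5 to 50 kb and 0.547% (0.444 to 0.675) over 50 kb.

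H3K27me3 was nearly absent from H3K27ac peaks of both kinds, touching 5 shared and 6 own ones. On H3K4me2 its share differed with acetylation and with the distance to it. It touched 14 of 16565 shared H3K4me2 peaks (0.0845%, 0.0504 to 0.142) and 753 of 47996 own ones (1.57%, 1.46 to 1.68). Own H3K4me2 peaks within 5 kb of H3K27ac met it in 0.117% (0.0709 to 0.193), those from 5 to 50 kb in 0.944% (0.817 to 1.09) and those over 50 kb in 3.5% (3.22 to 3.79). The median width was the base width in all 3 classes. Since 55.4% of own H3K4me2 peaks have that width, the median cannot show whether the classes differed in width.

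The list labelled H3K9me3 was commoner on shared than on own peaks of both marks, except among wide H3K27ac peaks. It touched 27.8% (27.1 to 28.5) of shared and 11.2% (10.7 to 11.7) of own H3K27ac peaks, and 22.5 and 7.3% of H3K4me2 peaks. At the base width or less the H3K27ac shares were 14.4 and 3.86% and the H3K4me2 shares 15.2 and 3.9%. In H3K27ac the contrast narrowed with width, to 40% (37.8 to 42.2) against 36.9% (33.1 to 41) between 2 and 3 kb, and was 32.3 against 33.7% from 3 to 5 kb. Over 5 kb the order was turned, with 24.8% (21.3 to 28.8) of shared and 40% (29 to 52.1) of 65 own H3K27ac peaks. In H3K4me2 the shares between 2 and 3 kb were 33.2% (30.7 to 35.9) and 25.4% (22.5 to 28.6). None of the other 4 lists touched 65.8% of shared and 70.6% of own H3K27ac peaks, or 71.3% of shared and 87.9% of own H3K4me2 peaks.

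The balance of the marks differed between chromosomes. The number of H3K4me2 peaks per H3K27ac peak had a median of 2.23 over the 23 chromosomes, from 1.22 on chromosome 19 to 2.88 on chromosome 13. Chromosomes 17 and 16 followed chromosome 19, at 1.35 and 1.36. On chromosome 19, 45.2% of H3K4me2 peaks were shared and own H3K4me2 peaks stood a median of 5.64 kb from H3K27ac. On chromosome 13 the values were 22.5% and 44.6 kb. For H3K27ac the order was turned, with 49% shared on chromosome 19 and 60.9% on chromosome 13. H3K27ac peaks were shared more often than H3K4me2 peaks on 23 of 23 chromosomes, and own H3K27ac peaks had the smaller median gap to the other mark on 23 of 23. H3K4me2 was the longer list on every chromosome, so an equal number of shared peaks is a smaller part of it there. The part of list length in both orders was not tested. The distance of own H3K27ac peaks from H3K4me2 was largest on the X chromosome, at 7.46 kb, and smallest on chromosome 13, at 1.61 kb.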

How the data were processed

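The values used were the positions of peaks in 6 lists deposited by the authors, 1 per library. Each row gives the chromosome, the start, the end and a name of a peak, and holds no height or score. The submitters' processing notes name Bowtie2 (2.1.0), HOMER (4.2) and the builds hg19 and GRCh37, without a role for any. How peaks were called, whether the input served as control, and how deeply each library was sequenced is not given in the sources used here. Positions are printed 1-based.

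Overlaps, gaps and clusters were computed with Python 3.11.15, numpy 2.4.6 and pandas 2.3.3, and checked on simulated intervals. Peaks were linked into clusters over gaps of at most 12.5 kb. The base width of the report is 501 bp. A gap is the number of bases between the edges of peaks. Coverage along a peak is the share of peaks whose base at that point lies in the other list. Overlaps within a list (255 H3K27ac and 70 H3K4me2 peaks) were kept.

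Named regions were the 5 longest shared regions, the 5 widest own peaks of each list, the 5 farthest reaches of each, the 3 clusters and the 3 shared regions with most peaks, and the 3 longest own runs of each. The peaks, lists and settings were chosen with earlier results of these data known. The coverage along peaks, the other lists by gap and the linked clusters were added after seeing the data. Sequence, gene context and cell type markers were not analysed, since a genome of hg19 was not used here.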

Additional observations from a re-analysis of the deposited data

Results flagged for a closer look

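Peaks outside chromosomes 1 to 22 and X did not enter the comparisons but also held both marks. The H3K27ac list had 157 such peaks, 154 of them on 25 contigs and 3 on chromosome Y, and 86 (54.8%, 47 to 62.4) overlapped H3K4me2. The H3K4me2 list had 174, of them 171 on 27 contigs and 3 on chromosome Y, and 83 (47.7%, 40.4 to 55.1) overlapped H3K27ac. They were listed here because they are signal in data that the comparisons left out.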

How the results depend on the processing

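Of 42 alternatives, 13 stayed within the 95% interval of the reported value and 29 moved beyond it. Most of those that stayed only left out the X chromosome. Beyond these, H3K27ac at both ends stayed with peaks merged within 1 kb (21%). So did H3K36me3 on narrow H3K27ac peaks, own minus shared, when sharing required 50% of the shorter peak (16.7 points, 17.1 as reported). Shares and width ratios are always positive, so only the differences could change sign, and 0 of them did. Libraries could not be paired because each mark had 1. The middle and side points of the H3K4me2 dip come from the same peaks, and its interval did not use that pairing. When sharing required 50% of the shorter peak, 42.3% of H3K27ac and 21.9% of H3K4me2 peaks were shared, and the median width of shared over own peaks was 1.99 (1.87 as reported) and 1.66 (1.62). With only the peaks above the median width of each list, 51.2 and 26.8% were shared, and 40.3 and 18.3% of own peaks had the other mark within 5 kb. With peaks merged within 1 kb, 51.6 and 26.1% were shared, 58 and 23.7% of own peaks had the other mark within 5 kb, and 25.1 and 21.2% of peaks were in clusters of 5 or more. Without the widest 1% of peaks the width ratios were 1.83 and 1.6. H3K27ac formed both ends in 22.1% of shared regions without peaks of at most the base width, and in 20% of regions with 1 peak of each list. Linked within 5 kb, 11.1% of H3K27ac and 7.15% of H3K4me2 peaks were in clusters, with shared minus own at -4.12 and 4.61 points. Linked within 25 kb the shares were 47.2 and 48.7%, with differences of -13.6 and 13.6. The H3K4me2 dip was -11 points with sides at 25 and 75% of the width, -8.54 with H3K4me2 merged and -9.03 without peaks touched by the list labelled H3K9me3. Merging fills gaps of up to 1 kb by itself, so the dip after it is partly set by the treatment. The alternatives for the dip and for the cluster differences, and those for H3K36me3 on narrow peaks, were chosen after seeing the data. The cause of these moves was not tested. Without read depth, an own peak cannot be told apart from a site whose other mark stayed under the threshold.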

Other observations

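Coverage was not symmetric along the coordinate axis in some width classes. In H3K27ac peaks of 2 to 3 kb, H3K4me2 covered 43.3% (41.3 to 45.3) at 15% of the width and 39.8% (37.8 to 41.7) at 85%, and in those of 1 to 2 kb 39.8 and 36.7%. The intervals of both points were apart from 1 to 2 kb and overlapped in the other width classes of H3K27ac peaks. In H3K4me2 peaks of 2 to 3 kb, H3K27ac covered 33.4% (31.4 to 35.5) and 28.8% (26.9 to 30.8) at these points. In narrower H3K4me2 peaks the order was the other way and the difference small, with 10.8 and 11.4% at the base width or less, 18.7 and 19.3% up to 1 kb and 25.5 and 26.1% from 1 to 2 kb. In regions with 1 peak of each mark, the H3K27ac centre was at the higher coordinate in 6737 and the H3K4me2 centre in 6312, with a median offset of 11.8 bp and a median above 0 on 19 of 23 chromosomes. Gene strand was not used here. These values were noticed after the data were seen.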
